A study of Mus musculus with 36 samples.

Results

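Small leucine-rich proteoglycans are secreted proteins of the extracellular matrix whose leucine-rich repeats bind collagen fibrils and growth factors. The 10 genes described here are Dcn (decorin), Bgn (biglycan), Aspn (asporin), Lum (lumican), Fmod (fibromodulin), Prelp (the heparin-binding member of the family), Omd (osteomodulin), Ogn (osteoglycin), Epyc (epiphycan) and Chad (chondroadherin). They were chosen by gene symbol, and every row of the deposited table with such a symbol was taken: 21 of 45101 probe sets, or 10 of 20701 genes with a gene ID. A probe set is a set of array probes for 1 transcript, and each gene was read from its probe set with the highest mean over all arrays; the remaining probe sets are given by their values or their range. Values are log2 intensities, so that 1 unit is a doubling, and a level is compared only within a probe set, never between genes.

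The arrays measured hearts of mice of the outbred strain OF1 at 12 stages: daily embryonic stages, the first E10.5 and the last E19.5, then young adult at 10 weeks and old adult (14 months in the series description, 10 months in the methods of the study). No allele or agent distinguished the groups. They differed in age, and E10.5 and E11.5 differed from the later stages also in the sex labels of their arrays. The prefix of the sample titles changes at the E16.5 female array. Each stage had 3 arrays, 36 in all, labelled female, male and mixed sex from E12.5 on and all mixed at E10.5 and E11.5. According to the methods of the study a female or male array of an embryonic stage held the heart of 1 pup, a mixed array held hearts of both sexes, and adult hearts were collected in a similar way; values are given in the order female, male, mixed for embryonic and male, mixed, female for adult hearts.

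In heart, fibroblasts and valve cells make most of these proteins, and the family is grouped by sequence. Decorin, biglycan and asporin form class I, and lumican, fibromodulin, Prelp and osteomodulin class II. Osteoglycin and epiphycan belong to class III, and chondroadherin is a class IV protein first known from cartilage. They space and stiffen collagen fibrils, and decorin, biglycan and asporin also hold transforming growth factor beta in the matrix.

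The tissue and the arrays were checked first. All 7 measured heart muscle markers had stage means above 5 in the 12 stages, and 0 of 7 measured liver markers did in any stage, although the extraction protocol in the labels names liver. Of 12 fibroblast markers, 8 were above 5 at E10.5, 11 at E19.5 and all 12 in hearts of young adults. The mean of 18 hybridization control probe sets, which read RNA added to every array, was 9.90 at E10.5 and higher at E19.5 (11.16), with 12.17 for young adult and 11.37 for old adult hearts, so this technical level moved with age beside the 10 genes. The mixed array of the old adult hearts held the lowest of the 3 values for 8 of the 10 genes, and the share over all genes was not taken. Its fibroblast marker mean was also the lowest, 7.49 against 8.07 (male) and 8.26 (female). So was its heart muscle marker mean, 11.85 against 12.55 and 12.5. Its skeletal muscle marker mean was the highest, 3.67 against 3.54 and 3.54. Because these are bulk samples, fewer fibroblasts and less RNA per fibroblast cannot be told apart.

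Several of the genes lie side by side in the mouse genome, and start regions are shown here. Some neighbours followed like courses, such as Aspn and Ogn up to E19.5, and others did not, such as Omd between them. In the RefSeq annotation of GRCm38.p6, Aspn, Omd and Ogn follow one another on chromosome 13, with Ecm2 on their other side; Dcn, Lum, Kera and Epyc follow one another on chromosome 10; and Prelp and Fmod lie near each other on chromosome 1. The RefSeq table held start regions for 8 of the 10 genes. The 250 bases before the start of 5 of them are printed 5′ to 3′ in the direction of the gene, with these motifs in capitals on either strand: TATAAA (the TATA box, in 12.4% of all 32851 windows of this length), GGGCGG (the GC box, 32.7%), TGANTCA (the AP-1 site, 6.75%) and GGAATG (the site of TEAD factors, 12.6%). The first 3 are the chromosome 13 neighbours. Bgn and Chad are added as the windows with a GC box.
Aspn, chr13:49544193-49544442, + strand: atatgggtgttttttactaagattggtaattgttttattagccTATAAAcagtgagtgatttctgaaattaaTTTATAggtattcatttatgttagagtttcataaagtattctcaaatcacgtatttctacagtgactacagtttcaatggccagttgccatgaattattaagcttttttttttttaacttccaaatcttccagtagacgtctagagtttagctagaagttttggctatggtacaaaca
Omd, chr13:49582212-49582461, + strand: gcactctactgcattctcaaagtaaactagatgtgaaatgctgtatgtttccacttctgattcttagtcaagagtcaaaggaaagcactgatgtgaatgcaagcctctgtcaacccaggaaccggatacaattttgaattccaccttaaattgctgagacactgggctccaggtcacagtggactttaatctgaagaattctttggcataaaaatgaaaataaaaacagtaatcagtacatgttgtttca
Ogn, chr13:49607765-49608014, + strand: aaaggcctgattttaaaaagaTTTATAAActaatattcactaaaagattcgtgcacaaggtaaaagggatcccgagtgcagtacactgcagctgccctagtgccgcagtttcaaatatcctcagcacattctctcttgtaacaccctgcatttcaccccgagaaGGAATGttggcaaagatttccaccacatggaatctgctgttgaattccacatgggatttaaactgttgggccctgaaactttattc
Bgn, chrX:73483351-73483600, + strand: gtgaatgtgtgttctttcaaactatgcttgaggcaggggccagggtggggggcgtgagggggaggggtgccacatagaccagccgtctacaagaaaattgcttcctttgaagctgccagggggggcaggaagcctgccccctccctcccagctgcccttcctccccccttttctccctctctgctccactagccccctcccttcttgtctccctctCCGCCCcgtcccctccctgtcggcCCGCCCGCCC
Chad, chr11:94564797-94565046, + strand: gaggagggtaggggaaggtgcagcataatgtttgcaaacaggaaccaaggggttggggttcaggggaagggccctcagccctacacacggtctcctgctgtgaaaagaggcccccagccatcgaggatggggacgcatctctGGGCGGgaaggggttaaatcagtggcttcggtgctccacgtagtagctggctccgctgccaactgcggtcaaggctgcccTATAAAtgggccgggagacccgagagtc

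The neighbours Aspn and Ogn each held 2 TATAAA matches more than 170 bases before the start, and Omd between them held 0 matches to the 4 motifs. The 2 matches of Ogn overlap each other, and 1 GGAATG match lies 86 to 81 bases before its start. The Chad window held a TATAAA 28 to 23 bases before the start and 1 GC box, and the Bgn window held 3 GC boxes, the last 2 of which overlap. The window of Omd had 38.4% G and C and that of Ogn 42.0%, against a median of 52.4% over all windows, while Bgn had 64.4% and Chad 60.4%. The windows of Fmod, on the + strand at chr1:134037004-134037253, and Prelp, on the − strand at chr1:133921402-133921651, held 0 matches. Of the Epyc windows, that at chr10:97643818-97644067 held 0 matches. That at chr10:97646853-97647102 held 1 match to the TEAD site, read as CATTCC, 188 to 183 bases before its start. These are matches of letters only, and no binding was measured.

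**Figure D1:**
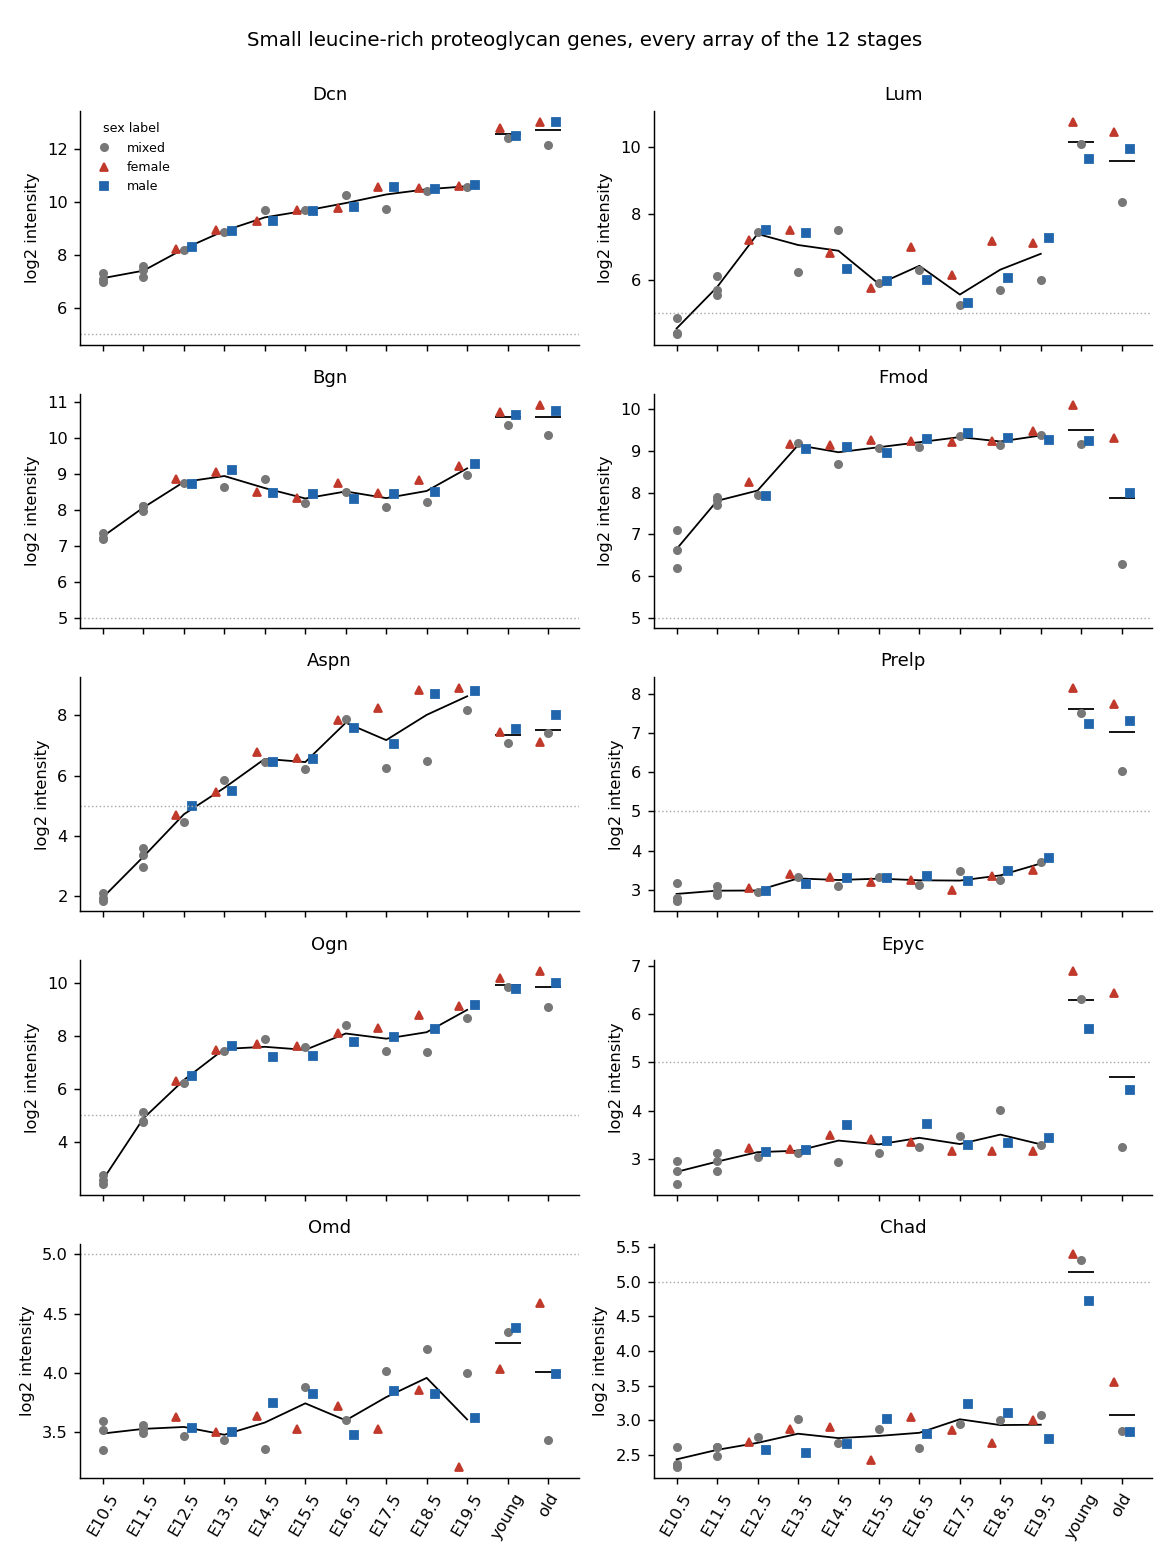
Each panel plots 1 gene, with the stage on the x axis and log2 intensity on the y axis; points are single arrays by sex label, the line joins embryonic stage means, the bars are adult means and the dotted line marks 5. Aspn and Ogn climbed from 1.96 and 2.58 at E10.5, whereas Prelp, Epyc and Chad stayed under 5 on all 30 embryonic arrays.

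From E10.5 to young adult, 9 of the 10 genes rose past the limits for differentially expressed genes (DEGs): a limma adjusted p under 1e-05, a change of more than 2 log2 units (4-fold) and a stage mean above 5. Over all genes 2.64% rose past these limits, and the median change of the 10 genes was 4.14 against 0.21 for all genes. Omd, the exception, rose by 0.77 (SE 0.20, adjusted p = 0.00137 in limma) and had no stage mean above 5. Lum, Ogn, Aspn, Prelp, Epyc and Chad started from E10.5 means under 5. Whether such levels were above background was not tested, so the size of a change from them is not exact and the changes of different genes are not ranked. With the hybridization control level as a covariate, 6 genes met the limits, Fmod, Epyc and Chad falling out at changes of 2.67, 2.94 and 2.27. With the change of title prefix in the labels as a term, 6 genes met them. Within a stage the prefix differs at E16.5 alone, between the female array and the others. That term thus rests on this stage and cannot be told apart from its sex labels.

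The path to that difference was split between the embryonic and the postnatal interval, and the split differed from gene to gene. From E10.5 to E19.5, 4 of the 10 genes (Dcn, Ogn, Aspn and Fmod) met the DEG limits, against 1% of all genes rising so far, and 8 rose at a limma adjusted p under 0.05, against 26.2%. From E19.5 to young adult, another 4 (Lum, Prelp, Epyc and Chad) met the limits, against 0.787%. At an adjusted p under 0.05, 8 rose, against 14.7% of all genes, and 1, Aspn, fell, against 17%. The difference between the 2 intervals was tested as 1 contrast: the postnatal change was smaller for Dcn, Ogn, Aspn and Fmod and larger for Prelp, Epyc and Chad, at adjusted p values from 6.19e-10 to 0.00997 in limma, and not called for Lum, Bgn and Omd. These 4 and 3 of 10 genes stand beside 12.5% of all genes called in each direction. Each gene was read here from its brightest probe set, and other probe sets of Ogn and Fmod split the rise more evenly. Another Fmod probe set rose by 1.61 up to E19.5 and by 1.14 after it. Prelp, Epyc and Chad had E10.5 and E19.5 means under 5, where an embryonic change could hardly be read. For them the contrast adds little to the rise after E19.5 itself.

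**Figure D2:**
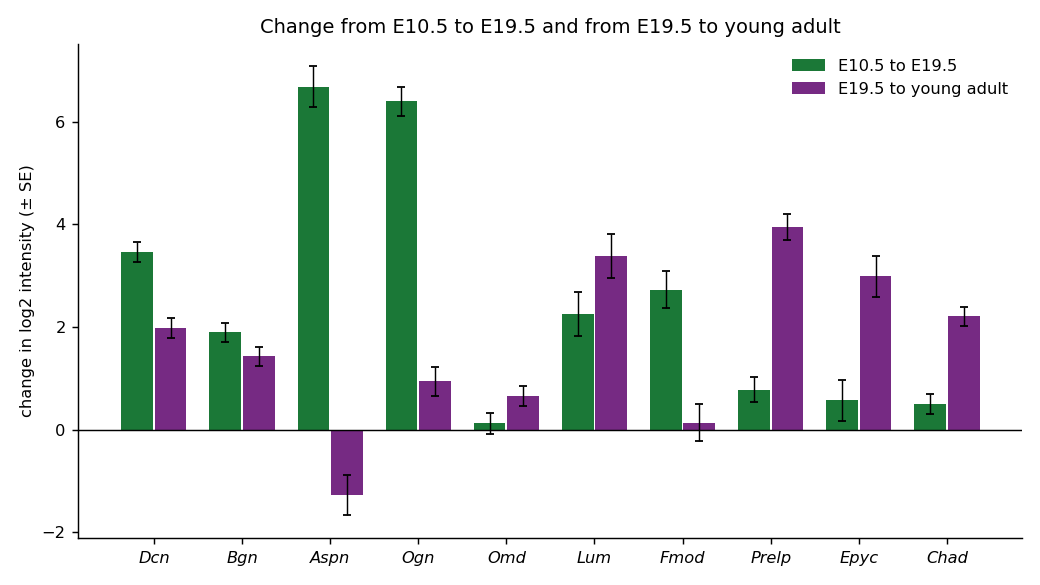
Bars give the change in log2 intensity (y axis) of each gene from E10.5 to E19.5 (green) and from E19.5 to young adult (purple) with the SE of the limma model. Aspn and Ogn changed by 6.68 and 6.40 in the first interval, and Prelp and Lum by 3.95 and 3.39 in the second.

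Decorin, the class I proteoglycan that coats collagen type I fibrils, rose steadily. Dcn read 6.97, 7.08 and 7.33 on the 3 arrays of E10.5 and 10.59, 10.62 and 10.56 on those of E19.5. Young adult arrays read 12.49, 12.42 and 12.81. The 3 groups did not overlap, and the stage mean was higher than the day before at 9 of 9 daily steps, which none of the other 9 genes reached. The rise was 3.47 (SE 0.19; 11.1-fold) up to E19.5 and 1.98 (SE 0.19; 3.94-fold) after it, just under the limit of 2, and centring each array on the median of its expressed probe sets brought the second change to 2.16, past the limit. Old adult arrays read 13.03, 12.15 and 13.02. A second, dimmer probe set rose by 1.33 and 0.16 in the 2 intervals, the latter at an adjusted p of 0.61 in limma.

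Biglycan, close to decorin in sequence and also a ligand of innate immune receptors, rose early and late, with lower means between. Bgn read 7.20, 7.37 and 7.22 at E10.5 and reached a mean of 8.95 ± 0.26 (SD, n = 3) at E13.5. The mean was 8.32 at E15.5, 8.33 ± 0.22 at E17.5, 9.16 ± 0.16 at E19.5 and 10.59 ± 0.19 in young adult hearts. The gain from E10.5 to E19.5 was 1.90 (SE 0.18) and from E19.5 to young adult 1.43 (SE 0.18), with no overlap between the arrays of the 3 stages. These 2 changes did not differ at the threshold (difference −0.47, SE 0.31, adjusted p = 0.31 in limma). The other probe sets of Bgn also rose in both intervals, one of them by 1.55 up to E19.5 and by 1.56 after it, with a mean of 8.90 at E12.5 and 7.58 at E17.5.

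Asporin, which lacks the usual glycosaminoglycan chain and blocks transforming growth factor beta, changed most before birth. Aspn read 2.09, 1.84 and 1.93 at E10.5, and its stage mean was 3.31 a day later. It read 8.91, 8.82 and 8.17 at E19.5, all 3 above every E10.5 array, a gain of 6.68 (SE 0.40; 102-fold from a level under 5). Young adult arrays read 7.54, 7.09 and 7.44, all below those of E19.5, a fall of 2.42-fold (adjusted p = 0.0149 in limma), and it was the single gene of the 10 that fell. Its second probe set also rose up to E19.5, by 4.23, and then changed by −0.67 at an adjusted p of 0.084 in limma, the same direction without passing the threshold. At E18.5 the mixed array read 6.50 and the female and male arrays 8.84 and 8.71, and the second probe set read 5.55 against 6.65 and 5.93. The fibroblast marker mean on the mixed array was 7.84 against 8.17 and 8.03, and the heart muscle marker mean 11.95 against 12.44 and 12.3. Its hybridization controls read 11.56 against 10.72 and 11.0. The cause was not tested.

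Osteoglycin, a class III protein first known from bone, followed Aspn up to E19.5 but did not fall afterwards. Ogn read 2.41, 2.56 and 2.76 at E10.5 and 4.75, 4.78 and 5.13 a day later. Only for Ogn, on its brighter probe set, were 3 consecutive daily steps called at an adjusted p under 0.05 in limma: 2.31 from E10.5 to E11.5, 1.44 to E12.5 and 1.17 to E13.5. The gain to E19.5 was 6.40 (SE 0.28; 84.2-fold from a level under 5), and the further gain of 0.94 (SE 0.28) to young adult had an adjusted p of 0.0106. Its second probe set rose by 2.99 and then by 1.82, and for it the difference between the 2 intervals missed the threshold (−1.17, adjusted p = 0.21 in limma). From E10.5 to E13.5 the stage means of this second probe set were 2.55, 2.74, 3.77 and 4.03, so it did not show the large first step.

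Osteomodulin, a keratan sulfate proteoglycan of mineralising bone that lies between Aspn and Ogn, stayed low. Omd read 3.52, 3.35 and 3.60 at E10.5 and 3.20, 3.62 and 3.99 at E19.5, which overlap. Young adult arrays read 4.38, 4.35 and 4.03, and its highest stage mean was 4.25. The gain of 0.12 (SE 0.20) from E10.5 to E19.5 missed the threshold, and that of 0.65 (SE 0.20) from E19.5 to young adult had an adjusted p of 0.0124.

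Lumican, the class II proteoglycan that keeps corneal collagen fibrils thin, rose early and late with lower means between, a course like that of Bgn. Lum read 4.35, 4.84 and 4.40 at E10.5 and rose to 7.20, 7.50 and 7.46 at E12.5, the highest embryonic stage. It was back at 6.13, 5.31 and 5.22 at E17.5, each below every E12.5 array, and at 7.10, 7.27 and 5.99 at E19.5. Young adult arrays read 9.64, 10.10 and 10.78, all above every embryonic array, a gain of 3.39 (SE 0.43; 10.5-fold) from E19.5. No trend over embryonic day passed the test, the slope being 0.07 per day (SE 0.05, adjusted p = 0.23 in limma), which became −0.04 without the stage E10.5.

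Fibromodulin, which directs the cross-linking of collagen in tendon, reached its level early on its brightest probe set. This probe set read 6.20, 6.63 and 7.10 at E10.5 and 9.17, 9.05 and 9.19 at E13.5. From E13.5 to E19.5 the stage means lay between 8.97 and 9.37, and the gain from E10.5 to E19.5 was 2.72 (SE 0.37). The further change to young adult hearts was 0.14 with an SE of 0.37 (adjusted p = 0.82 in limma), and its direction turned when the young adult female array was left out. The other 5 probe sets rose by 1.61 to 2.26 up to E19.5, where those rising by less than 2 missed the DEG limits, and changed by 0.40 to 1.14 after it. All 6 thus changed in the same direction after E19.5, and 1 passed the threshold there (1.14, SE 0.31, adjusted p = 0.005 in limma). That probe set had risen by 1.61 (SE 0.31) up to E19.5, short of the DEG limits. Its stage means were 5.24 at E13.5, 4.58 at E17.5 and 5.59 at E19.5, so it did not keep a level reached early.

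**Figure D3:**
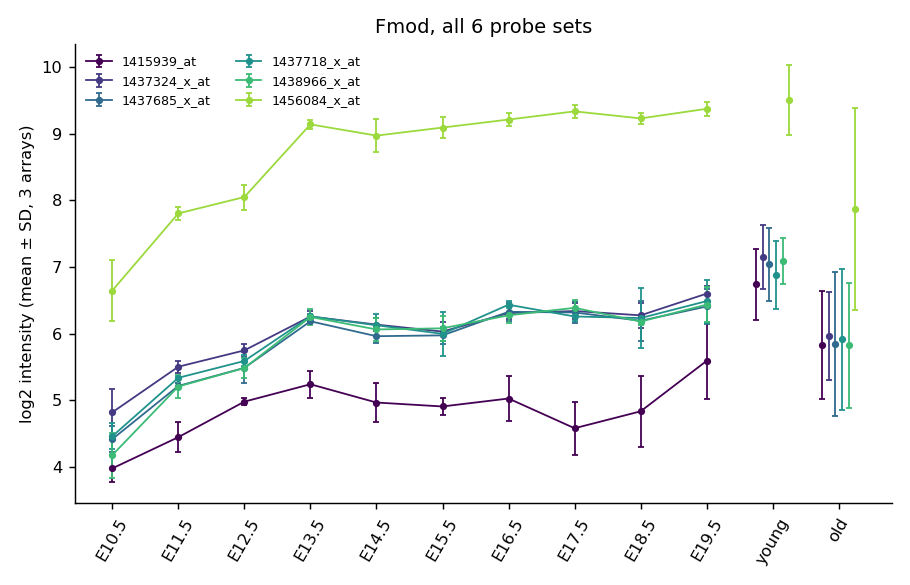
Mean ± SD of 3 arrays (y axis, log2 intensity) of the 6 Fmod probe sets over the 12 stages. The brightest, on top, had means between 8.97 and 9.51 from E13.5 to young adult, and the one lowest at E10.5 went from 5.59 at E19.5 to 6.74 in young adult hearts, and all 6 were lower in old adult hearts.

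Prelp, Epyc and Chad, all best known from cartilage and other dense connective tissue, were under 5 in every embryonic heart and higher in young adult hearts. Prelp, a protein that anchors basement membranes to collagen, read 3.51, 3.81 and 3.70 at E19.5 and 7.22, 7.50 and 8.15 in young adult hearts, a gain of 3.95 (SE 0.25; 15.5-fold). Epyc, a proteoglycan of growth plate cartilage, read 3.18, 3.44 and 3.30 at E19.5 and 5.68, 6.31 and 6.89 in young adult hearts, a gain of 2.99 (SE 0.40; 7.94-fold). Chad, which binds chondrocytes and collagen, read 3.00, 2.73 and 3.08 and then 4.72, 5.31 and 5.39, a gain of 2.21 (SE 0.19; 4.62-fold). In all 3 genes no young adult array overlapped with any embryonic array, but the share of all genes without such overlap was not taken. The folds are taken from levels under 5. The second probe set of Prelp rose by 1.36 in the same interval.

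Epyc and Chad depended on limits and single arrays more than Prelp did. Chad was above 5 only in its young adult mean of 5.14, and an expression limit of 6 removed it. Epyc missed the DEG limits with the hybridization control level as a covariate (2.71), without 1 E19.5 array (female, 2.92) and without the young adult female array (2.69). Prelp met them in every one of these settings.

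Over the 30 embryonic arrays, 9 of the 10 genes rose with embryonic day at an adjusted p under 0.05 in limma, against 43.9% of all genes. The slope was 0.68 per day for Aspn (SE 0.05), 0.54 for Ogn (SE 0.06), 0.40 for Dcn (SE 0.02) and 0.25 for Fmod (SE 0.03). It was 0.10 for Bgn and between 0.04 and 0.07 for Prelp, Epyc, Chad and Omd, whose rise over the whole embryonic interval was thus under 1 log2 unit. Prelp, Epyc, Chad and Omd had all embryonic stage means under 5. Markers of other tissues also rose this slightly: 5 of 7 liver markers were called rising and 0 falling, at a median slope of 0.04. Of 8 skeletal muscle markers 5 rose and 3 fell. The median slope was 0.02 over all genes and −0.02 over those with a stage mean above 5. So these small slopes are not read as a rise of expression. With the hybridization control level as a covariate 6 of the 10 slopes were called, those of Chad, Epyc and Omd being lost, and without the stage E10.5 the slope of Bgn was lost.

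Changes from one day to the next were called early. From E10.5 to E11.5 Ogn and Bgn rose (2 of 10 genes, against 1.21% of all genes). From E11.5 to E12.5 Ogn rose (1 of 10, against 0.0821%), and so it did from E12.5 to E13.5 (1 of 10, against 0.667%). Ogn was read here from its brighter probe set. With the mean of all probe sets of a gene, 2 calls instead of 4 were left over the 9 steps. For the 6 later steps 0 of the 10 genes were called in limma, with up to 2 of 10 at an unadjusted p under 0.05 in a step. Array weights raised the number of calls over the 9 steps from 4 to 22, and leaving out the old adult mixed array raised it to 9, while leaving out the array with the second E11.5 number or any array of E12.5 lowered it to 2 and leaving out the E17.5 mixed or the E18.5 female array raised it to 7.

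Old adult hearts differed from young adult hearts in fewer of these genes. Chad, Fmod and Epyc were lower, 3 of 10 genes at an adjusted p under 0.05 in limma against 3.13% of all genes, and 0 were higher. Chad read 2.83, 2.85 and 3.56 in old adult hearts, all below the young adult arrays, which gave a fall of 4.18-fold (log2 change −2.06, SE 0.19, adjusted p = 8.39e-08 in limma) and brought it close to its E19.5 mean of 2.94. Fmod read 7.99, 6.30 and 9.31 in old adult hearts against 9.25, 9.17 and 10.11 in young adult hearts, and its 6 probe sets changed by −1.64 to −0.91. Epyc read 4.43, 3.25 and 6.43, which overlaps with the young adult range.

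The Chad difference was as large without any single array, between −2.30 and −1.94, whereas those of Fmod and Epyc depended on the mixed old adult array. Without it the change was −0.86 for Fmod and −0.87 for Epyc, and neither was called. That array was also lowest of the old adult arrays in fibroblast and heart muscle marker means, and the cause was not tested. Epyc was also not called without the old adult male array (−1.46), without the young adult female array (−1.30) and with the hybridization covariate (−1.37). When the 6 adult arrays were fitted alone, 0 of the 10 genes were called in limma, with Chad at an adjusted p of 0.06 and 3 genes at an unadjusted p under 0.05; with the sex label as a block, an alternative chosen after seeing the data, Chad was called at 0.036. The hybridization controls read 12.03 to 12.43 on the young and 11.16 to 11.56 on the old adult arrays, and with them as a covariate Chad, Fmod and Lum were called. The other genes showed no call: Dcn differed by 0.16 and Bgn by 0.01 (SE 0.19 and 0.18), and the direction of Bgn, Aspn, Ogn, Lum and Omd changed with the array left out.

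**Figure D4:**
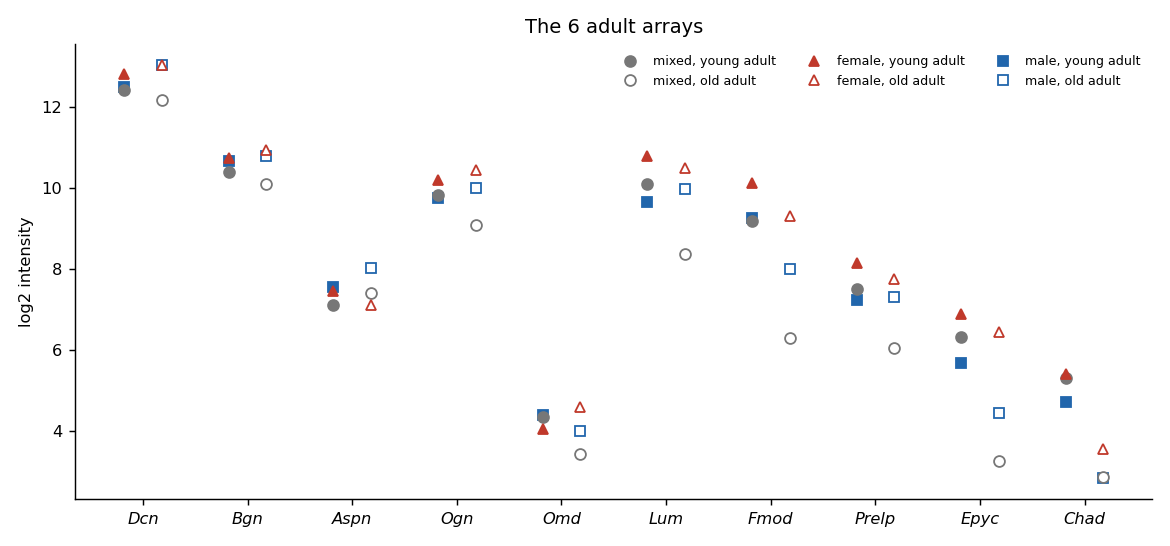
Each point is 1 of the 6 adult arrays (y axis, log2 intensity; levels are not comparable between genes), filled for young adult and open for old adult, with the sex label by shape. The old adult mixed array is lowest for 8 genes, and the old adult Chad arrays lie below 4 while the young adult ones lie above it.

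Male and female hearts were compared over 9 pairs of arrays from E13.5 to old adult. In limma 0 of the 10 genes were called, beside 0.0242% of all genes higher and 0.0193% lower in males. At an unadjusted p under 0.05 there were 3, all lower in males: Lum with a male minus female difference of −0.53 (SE 0.14, adjusted p = 0.36 in limma), Ogn with −0.30 (SE 0.09) and Fmod with −0.28 (SE 0.13). The female array was above the male array in 8 of the 10 genes in young adult hearts and in 8 of 10 in old adult hearts, against 3 to 7 of 10 from E12.5 to E19.5. Each count sets a single female array against a single male array. The share over all genes was not taken, so the counts are not read as a sex difference of these genes. In the adult hearts Aspn was the exception at both ages, the male array reading 7.54 against 7.44 in young and 8.03 against 7.11 in old adult hearts.

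Whether the sex difference itself changed with maturity was tested as an interaction over 7 embryonic and 2 adult pairs. It was called for Fmod and Epyc, 2 of 10 genes, both lower in adult males, against 0.324% of all genes called in that direction. Epyc read 6.89 in the young adult female and 5.68 in the male array, and 6.43 and 4.43 in old adult hearts, while its 7 embryonic differences lay between −0.05 and 0.38. All embryonic Epyc values were under 5, where a sex difference could hardly be read, so for Epyc the term adds little to the adult values themselves. Fmod read 10.11 and 9.25 in the young adult pair and 9.31 and 7.99 in the old adult pair, its embryonic differences lying between −0.31 and 0.20. The adult side rests on 2 pairs. With array weights or with the hybridization covariate 1 gene was called. So it was without the E16.5 pair and without the E18.5 pair. Leaving out either array of a pair removes the pair, and the title prefix as a term removes that of E16.5, so these are not separate checks.

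Adipocyte markers differed between the same arrays. The mean of the 6 measured markers was 6.81 in the young adult female and 5.47 in the male array, and 6.33 and 5.05 in old adult hearts, with Adipoq (adiponectin) at 6.24, 4.02, 5.56 and 3.12 in that order. Over all embryonic stages the mean of this list lay between 2.76 and 4.53. The 11 cartilage, tendon and valve markers averaged 4.63 and 4.37 in the young and 4.35 and 4.40 in the old adult pair, and 3.80 on the old adult mixed array, where Comp, a cartilage and tendon matrix protein, read 5.69 against 7.70 and 8.72 on the other old adult arrays. The part of such tissue in the results of the 10 genes was not tested.

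The other genes of the matrix were compared through lists. Of 8 other leucine-rich repeat proteoglycans, 3 rose from E10.5 to E19.5 and 3 from E19.5 to young adult at an adjusted p under 0.05 in limma, 0 fell, and 0 met the DEG limits in either interval. Among them, Ecm2, the neighbour of Aspn, rose from 3.20 to 4.65 after E19.5, and Kera, the cornea's keratocan and the neighbour of Lum, rose from 2.29 to 2.97. The 2 were named for their position beside the 10 genes.

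Fibril collagens, the partners of these proteoglycans, took another course after birth. Of 13 fibril-forming and fibril-associated collagens, 11 rose and 1 fell from E10.5 to E19.5, while from E19.5 to young adult 0 rose and 7 fell, at an adjusted p under 0.05. Their median changes were 1.41 and −0.86, and those of the 10 proteoglycan genes 2.08 and 1.70, beside 0.16 and 0.05 for all genes. Col1a1, the main chain of collagen type I, fell by 3.33 (SE 0.21) after E19.5, and Col11a1, of collagen type XI, fell by 2.46 (SE 0.22). Whether the lists differ from each other was not tested.

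Other partners were counted over the same interval, in which 14.7% of all genes rose and 17% fell. Of 16 other proteoglycans 0 rose and 6 fell from E19.5 to young adult, and 0 met the DEG limits. Of 20 enzymes of chondroitin and dermatan sulfate synthesis, which build the side chains of decorin and biglycan, 3 rose and 3 fell, shares near those of all genes, and of 7 enzymes of keratan sulfate synthesis, needed for lumican and fibromodulin, 1 rose and 0 fell. Of 13 matrix processing enzymes 4 rose and 4 fell, Pcolce2, an enhancer of procollagen cleavage, rising by 3.87 (SE 0.23). Of 14 bound ligands and receptors 3 rose and 3 fell, and Wisp1, a matrix signalling protein, fell by 2.52.

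**Figure D5:**
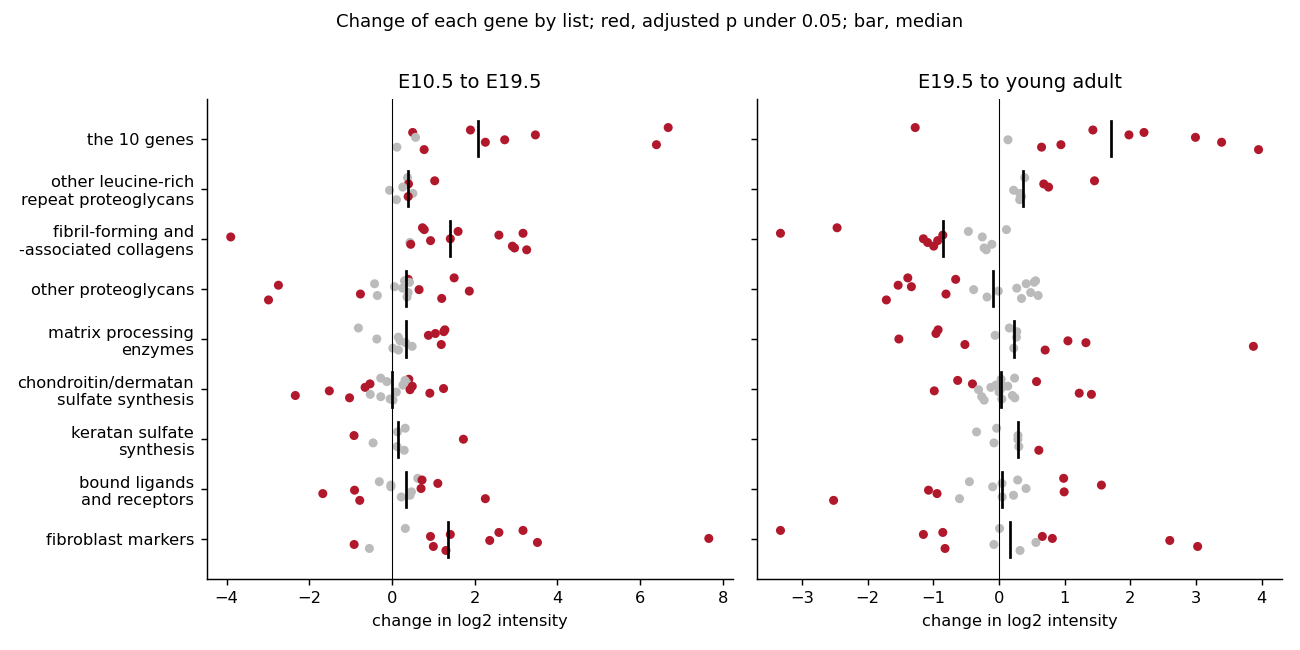
Points are genes of 9 lists (y axis) by their change in log2 intensity (x axis) from E10.5 to E19.5 and from E19.5 to young adult; red marks an adjusted p under 0.05 and the bar the median of the list. The collagen median moves from 1.41 to −0.86 while that of the 10 genes is 2.08 and 1.70.

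Fibroblast markers, which overlap with the collagens in Col1a1, Col1a2 and Col3a1, rose in 9 of 12 and fell in 1 of 12 from E10.5 to E19.5, and 4 rose and 4 fell from E19.5 to young adult. Pi16, of adventitial fibroblasts, rose by 3.02 (SE 0.20) after E19.5. Of 8 epicardium and mesothelium markers 0 rose and 3 fell, and of 7 heart muscle markers 0 rose and 3 fell in that interval. Of 8 skeletal muscle markers 2 rose and 1 fell, of 7 liver markers 1 rose and 0 fell, and of 3 lung markers 0 rose and 0 fell. Of 11 cartilage, tendon and valve markers 3 rose and 2 fell, Comp by 4.70 (SE 0.36), and Col9a1 fell by 2.06. Of 6 adipocyte markers 4 rose, among them Cfd by 4.40 and Adipoq by 2.75. The median change of the cartilage, tendon and valve list was −0.06 and that of the adipocyte list 1.11, against 0.05 for all genes. The part of either tissue in the rise of Prelp, Epyc and Chad was not tested.

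Likeness of course was described by Pearson's r over the 12 stage means, which share arrays and a common trend with age, among 11308 other genes with a stage mean above 5. Dcn was most like Map3k6 (r = 0.994), Nod1 (0.994) and Gimap4 (0.991). Aspn was most like Col6a2, a chain of collagen type VI (0.985), Sash1 (0.983) and Rogdi (0.974), and Ogn was most like A130040M12Rik (0.982), Pmepa1 (0.978) and Tcf4 (0.977). Bgn and Lum shared 2 of their 3 nearest genes, Ccdc3 (0.988 and 0.976) and the macrophage mannose receptor Mrc1 (0.985 and 0.966), the others being Islr (0.979) and the protease inhibitor Timp2 (0.968).

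Prelp was most like Rpl3l, a ribosomal protein of striated muscle (0.998), Retnla (0.995) and Arl4d (0.994). Epyc was most like Itih4 (0.973), Cyp2e1 (0.972) and the adipocyte hormone Retn (0.969), Chad like Lmod1 (0.961), B230220N19Rik (0.949) and Trim34a (0.948), and Fmod like Myo9b (0.979), Tpm2 (0.973) and Pnisr (0.972). Omd, with no stage mean above 5, was left out of this search. Among the 10 genes themselves, Lum and Bgn had an r of 0.975, Prelp and Epyc 0.948, Chad and Epyc 0.939 and Ogn and Aspn 0.921, while Fmod and Prelp had 0.128. Dcn and Ogn had an r of 0.920, Dcn and Bgn 0.861, Dcn and Aspn 0.819 and Dcn and Lum 0.772.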

How the data were processed

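Total RNA of mouse hearts was hybridized to Affymetrix Mouse430 2.0 arrays. The values are log2 intensities that the authors made before deposit by robust multi-array averaging (RMA, from the submitters' processing notes, which also name Affymetrix Expression Console and Partek 6.6). The table holds 45101 probe sets, 6937 of them without a gene ID, and was used as deposited. Levels ran from 1.3105 to 14.0366.

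Stage means were fitted to all 36 arrays in limma 3.58.1 (R 4.3.3; prior degrees of freedom 6.962), with Benjamini-Hochberg adjustment over all probe sets within a comparison. DEGs had an adjusted p under 1e-05, an absolute log2 change above 2 and a stage mean above 5; other comparisons used an adjusted p under 0.05. The slope used the 30 embryonic arrays, and sexes were compared with the stage as a block. Beyond the 10 genes, the rule for naming was the gene with the highest and the one with the lowest change among those called in a list, and the 3 most alike in course; other genes were named after their values were seen. The 10 genes and the lists were chosen with earlier results of these data known. Of 170 listed genes 163 were measured.

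On simulated data 98% of changes of 3 log2 units between E19.5 and young adult were recovered among 45101 probe sets, with 0 false calls. For the slope all 100 changes of each size, 0.3 and 0.5 per day, were recovered with 14 false calls. For male minus female 20 of 20 changes of 2 log2 units were recovered with 2 false calls. Smaller slopes and sex differences were not simulated. Most slopes and all mean male minus female differences reported here were smaller. The recovery therefore does not show how well such changes would be found. The number of arrays limits the precision. Replicates are separate samples by their labels. Alternatives were array weights, trend and robust moderation, quantile normalization, median centring, expression limits, a log2 limit of 1, other probe set rules, a hybridization control covariate, the title prefix, which changes at the E16.5 female array, as a term, a replicate block and each array left out.

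Motifs were searched in RefSeq windows of GRCm38.p6, with Python 3.11.15.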

Additional observations from a re-analysis of the deposited data

Results flagged for a closer look

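The difference between male and female arrays itself differed between adult and embryonic hearts for Epyc and Fmod, by the interaction term in limma over 7 embryonic and 2 adult pairs. For Epyc the male minus female difference was 0.15 ± 0.15 (SD, n = 7) in embryonic hearts and −1.21 and −2.0 in young and old adult hearts, an interaction of −1.76 (SE 0.21, adjusted p = 0.000803 in limma). All embryonic Epyc values were under the expression limit of 5, so these pairs could hardly show a sex difference and the term restates the adult difference. For Fmod it was −0.05 ± 0.18 (SD, n = 7) in embryonic hearts and −0.86 and −1.32 in the adult pairs, an interaction of −1.04 (SE 0.19, adjusted p = 0.0233 in limma). Of the other Fmod probe sets, 2 of 5 were called.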

How the results depend on the processing

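The counts of genes called moved by over 1.5 times in 3 comparisons. Over the daily steps, 4 calls became 22 with array weights, 9 with the hybridization covariate, 7 with median centring and 2 with the mean of all probe sets of a gene, and 2 to 9 with 1 array left out. For the sex difference in adult against embryonic hearts, 2 became 1 with array weights, with the hybridization covariate and with the title prefix, and 1 to 3 with 1 array left out. The title prefix here amounts to leaving out the E16.5 pair. For old against young adult hearts, 3 became 0 with the adult arrays alone and 1 with the sex label as a block as well, which was chosen after seeing the data, and 1 to 4 with 1 array left out. The replicate block used the label numbers at E10.5 and E11.5 and the sex labels from E12.5 on. It left 4, 9, 4, 3, 7 and 9 calls in the E10.5 to E19.5, E10.5 to young adult, E19.5 to young adult, old adult, interval difference and slope comparisons, and 6 over the daily steps. Same-numbered arrays correlated in their deviations at −0.27 to 0.252 and differently numbered ones at −0.582 to 0.63. These few pairs cannot tell whether a number marks anything shared.

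Some small changes turned direction. Old minus young adult became −0.52 (hybridization covariate), −0.24 (mean of probe sets) and −0.0135 (quantile normalization) for Aspn, −0.28 (covariate), −0.14 (centring) and −0.0902 (quantile) for Bgn and −0.0901 (covariate) for Dcn. With 1 array left out it ran from −0.10 to 0.35 for Aspn, −0.16 to 0.27 for Bgn, −1.01 to 0.0483 for Lum, −0.37 to 0.30 for Ogn and −0.54 to 0.0363 for Omd. E10.5 minus E19.5 for Omd became 0.21 (covariate), 0.0653 (quantile) and 0.0590 (title prefix) and ran from −0.32 to 0.0751 with 1 array left out, and E19.5 minus young adult for Fmod ran from −0.31 to 0.16. The slope of Lum became −0.0444 without E10.5. The cause was not tested.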
